A study of Homo sapiens with 12 samples.

Results

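MX1, MX2, RSAD2, CMPK2, BST2, SAMHD1, SAMD9, SAMD9L, IFI6 and IFI27 encode antiviral effectors, proteins that act inside or at the surface of a cell to hold back viruses. They were chosen by symbol from the 63086 genes of the deposited table of normalised read counts, and all 10 were found. RNA came from MIA PaCa-2, a human pancreatic carcinoma cell line grown in medium with serum, and was sequenced in 12 libraries. The 4 lines, with 3 biological replicates each, were an unmodified line (WT), a CRISPR Control that went through editing and carries a silent point mutation, and a pair of knockout clones, TIMP1 KO 1 and TIMP1 KO 2, edited in exon 4 of TIMP1 with Cas9 and guide RNAs. The labels name no treatment with interferon or a virus. TIMP1 encodes tissue inhibitor of metalloproteinases 1, a secreted protein, and the study asked which transcripts depend on it. Because each knockout line is a clone, loss of TIMP1 and other differences between clones cannot be told apart within a single line.

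Interferons are secreted proteins that cells release on sensing viral nucleic acid. Type I and type III interferons bind different receptors, and both lead through the kinases JAK1 and TYK2 to a transcription factor complex that includes IRF9. That complex binds the interferon-stimulated response element (ISRE) before the start of many genes, and the effectors described here are known interferon-stimulated genes. In many cell types some of them are nearly silent until interferon arrives, while others have a standing level.

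The sequence before the start of each gene was examined for the ISRE core, written GAAANNGAAA and searched on both strands. RefSeq windows of GRCh38.p14, from 250 bases before to 50 bases after an annotated start, were at hand for 9 of the 10 genes, some of which have several starts. The core was present for 6 of these 9 genes, and in 3.57% of all 35116 windows. That share is per window, and a gene with several windows has more chances of a match. The core was matched for MX1, RSAD2, BST2, SAMD9, IFI6 and IFI27. No window of CMPK2, SAMHD1 or SAMD9L held these letters. A stretch is shown for each of the 6 genes with a match, and capitals mark the core. Whether a core goes with the size of a difference between lines was not tested.
MX1, chr21:41420554-41420593, plus strand: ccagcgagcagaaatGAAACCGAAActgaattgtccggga
RSAD2, chr2:6877617-6877656, plus strand: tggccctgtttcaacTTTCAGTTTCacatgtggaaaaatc
BST2, chr19:17405730-17405775, minus strand: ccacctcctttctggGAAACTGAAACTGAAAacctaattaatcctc
SAMD9, chr7:93118091-93118130, minus strand: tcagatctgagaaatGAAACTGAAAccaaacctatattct
IFI6, chr1:27672261-27672363, minus strand: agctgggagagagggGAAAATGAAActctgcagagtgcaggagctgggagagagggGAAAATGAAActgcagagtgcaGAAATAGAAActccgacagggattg
IFI27, chr14:94110613-94110665, plus strand: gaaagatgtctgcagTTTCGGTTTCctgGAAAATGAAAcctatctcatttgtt

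Each line is read 5′ to 3′ along the gene's own strand, so TTTC in capitals is the core on the other strand. BST2 held 2 overlapping cores, 130 and 124 bases before its start. IFI6 held 3 of them, at 156, 115 and 93 bases, and the first and second lie in a repeated stretch. IFI27 held 2 of them, on opposite strands. Windows with 2 or more cores made up 0.259% of all windows. The core of MX1 shown above lies just after the annotated start of that window, and another MX1 start had a core 196 bases before it. The element of signals from interferon gamma, TTCNNNGAA, was found for 3 of the 9 genes (MX1, BST2 and IFI27). It was found in 7.66% of all windows, again a share per window and not per gene. A match of letters is a description of the sequence and not evidence of binding.

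RSAD2 and CMPK2 lie next to each other on chromosome 2 and are read away from each other, and the annotated genes overlap by 1079 bases at their starts. One window of RSAD2, at the start that lies over CMPK2, held GAAACGAAA 4 times.
RSAD2, chr2:6865718-6865848, plus strand: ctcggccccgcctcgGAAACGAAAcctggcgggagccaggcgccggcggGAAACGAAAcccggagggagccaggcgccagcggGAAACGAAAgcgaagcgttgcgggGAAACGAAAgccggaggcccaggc

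A CMPK2 window covers part of the same stretch and held 2 of these repeats. The repeat was chosen after the window had been read. It was present in 0.162% of all windows, and the pair of windows of RSAD2 and CMPK2 were the 2 windows of 35116 with more than 1 copy.

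Depth ran from 26908701 to 36093563 reads in genes. The mean normalised count of TIMP1 was 3553 ± 274 for WT and 2690 ± 357 for CRISPR Control, against 1600 ± 32.8 for KO 1 and 1161 ± 28.8 for KO 2 (SD, n = 3 each). All 6 knockout libraries were below all 6 others, but edited transcripts can still be counted, so this level alone does not check the knockout. The 6 carcinoma line markers checked were KRT8, KRT18, VIM, EPCAM, KRT19 and CDH1. All 6 had a mean of at least 10 over the 12 libraries, with VIM, KRT8 and KRT18 among the abundant transcripts. The study describes MIA PaCa-2 as mesenchymal or basal-like. The 6 carcinoma line markers summed to between 107500 and 135640 in the libraries of CRISPR Control, below the range of 250110 to 315240 in the other 3 lines. Of 10 leukocyte markers, the defining genes PTPRC and CD3E averaged at most 5.17 and 0.552 in any line, while the myeloid markers CD14 and ITGAM were higher in KO 2 than in WT. Comparisons used limma on log2(normalised count + 1) over 15987 genes with a mean of at least 10, with Benjamini-Hochberg adjustment over all of these genes and a threshold of 0.05. A log2 difference on this scale understates the change of low genes.

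All 10 effectors passed the minimum of 10, but RSAD2, SAMD9L and IFI27 passed it through KO 2 alone, since their means over the other 9 libraries were 5.51, 6.73 and 6.98. Counts are therefore also given over the other 7 genes. In KO 2 against WT all 10 effectors were higher, and 7 of these 7, where 27.1% of all genes tested were called higher. A difference of at least 1 on the log2 scale was reached by 9 of the 10, against 10.0% of all genes. The median log2 difference of the 10 genes was 6.94, and that of all genes tested was -0.0084. In KO 1 against WT 9 of the 10 were higher, and 7 of these 7, against 18.0% of all genes. In this comparison 7 of the 10 reached a log2 difference of 1, against 4.13% of all genes, and the median was 1.69 beside 0.0032 for all genes. KO 1 and KO 2 share the same WT libraries here. When libraries were scaled to equal totals, the split of all calls in KO 2 against WT changed from 4330 higher and 4461 lower to 5235 higher and 3500 lower, and the median of all genes in KO 2 against CRISPR Control from -0.0084 to 0.11. No effector changed direction under that scaling.

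The MX proteins are dynamin-like GTPases. MX1 (ENSG00000157601.15, chromosome 21, 41420020 to 41470071, plus strand) acts in the cytoplasm against influenza and other RNA viruses. Its normalised counts were 52.1, 55.5 and 56.2 in the WT libraries, 70.0, 99.6 and 74.7 in those of CRISPR Control, 730, 1195 and 700 in those of KO 1, and 9948, 10475 and 9963 in those of KO 2. The 4 lines thus stood in 4 separate ranges, and the KO 1 library of replicate 2 was well above the other two of its line. The log2 difference from WT was 7.51 (SE 0.16, limma adjusted p 7.55e-17) in KO 2 and 3.93 (SE 0.16, limma adjusted p 7.94e-13) in KO 1, 186-fold and 16.0-fold by the means. At its end MX1 overlaps TMPRSS2, a gene on the opposite strand, by 5772 bases, and the strand setting of the counting was not stated. TMPRSS2 had 1075 ± 51.7 normalised counts in WT and 605 ± 28.0 in KO 2 (SD, n = 3 each), the opposite direction to MX1.

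MX2 (ENSG00000183486.14, chromosome 21, 41361999 to 41409393, plus strand), which lies before MX1 on the same strand, acts at the nuclear envelope and restricts HIV-1 and herpesviruses. Its normalised counts were 2208, 2159 and 2290 in the WT libraries, 1317, 1108 and 1152 in those of CRISPR Control, 2614, 2846 and 2757 in those of KO 1, and 3003, 3192 and 2883 in those of KO 2. Here CRISPR Control was the lowest line and the knockout lines were only slightly above WT, by 0.30 (SE 0.08, limma adjusted p 0.00449) in KO 1 and 0.45 (SE 0.08, limma adjusted p 7.20e-05) in KO 2 on the log2 scale. Between the knockout lines MX2 did not pass the threshold, with a log2 difference of 0.14 (SE 0.08, limma adjusted p 0.152). It was the only effector for which this was so, and with equal library totals the difference of 0.25 did pass.

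The balance of the paralogues therefore turned over between lines. Per kb of the canonical transcript, the level of MX1 was 0.0302 ± 0.0013 times that of MX2 in WT and 0.0851 ± 0.0231 times in CRISPR Control. In KO 1 the ratio was 0.390 ± 0.110, and in KO 2 it was 4.11 ± 0.115 (SD, n = 3 each). MX2 was the more abundant of the pair in all 9 libraries outside KO 2, and MX1 in all 3 libraries of KO 2. Over all annotated exons merged, which are much longer for both genes, the KO 2 ratio was 2.71 ± 0.0756 and the WT ratio 0.0199.

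**Figure D1:**
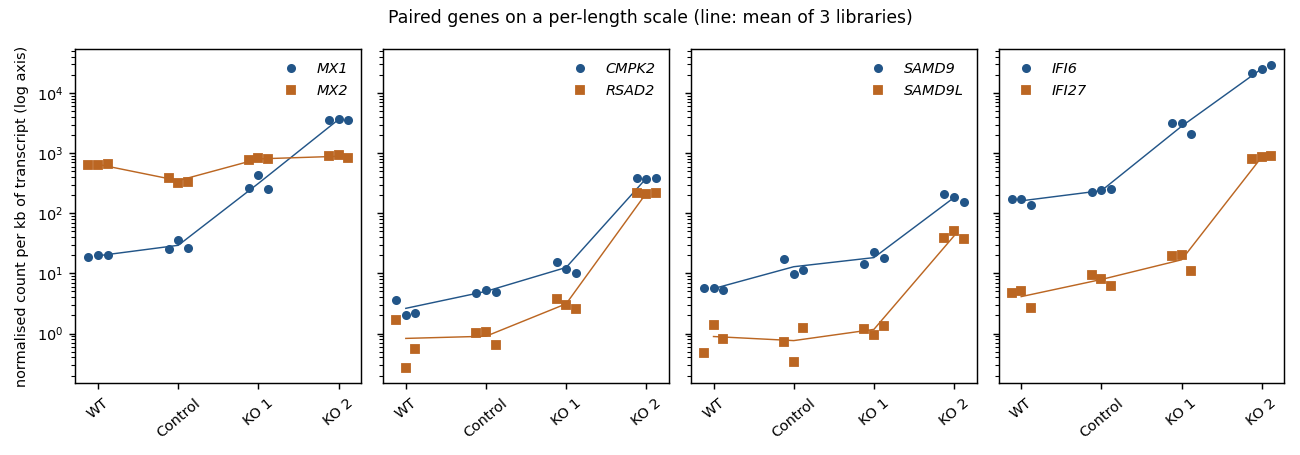
Level per kb of canonical transcript, on a log axis, of 4 pairs of genes in each library. Points are libraries and lines join the means of the 4 lines. MX1 crosses MX2 between KO 1 and KO 2, whereas CMPK2, SAMD9 and IFI6 stay above RSAD2, SAMD9L and IFI27 in every library.

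RSAD2 encodes viperin, a radical SAM enzyme that makes a modified CTP nucleotide which ends viral RNA chains, and CMPK2 encodes a mitochondrial nucleotide kinase that supplies nucleoside triphosphates. RSAD2 (ENSG00000134321.13, chromosome 2, 6865557 to 6898239, plus strand) had 5.66, 0.909 and 1.91 normalised counts in the WT libraries and 3.45, 3.56 and 2.20 in CRISPR Control. It had 13.0, 10.1 and 8.83 in KO 1 and 747, 718 and 754 in KO 2. WT and CRISPR Control overlapped, KO 1 lay just above both, and KO 2 was far above all other libraries. WT held only 8 reads of RSAD2 in all, so the ratio of KO 2 to WT of 280 had a 95% interval from counting error alone of 142 to 650. The ratio of KO 1 to WT was 3.99 (1.79 to 10.0). On the fitted scale the differences from WT were 7.80 (SE 0.38, limma adjusted p 5.12e-12) in KO 2 and 1.79 (SE 0.38, limma adjusted p 0.00119) in KO 1.

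CMPK2 (ENSG00000134326.12, chromosome 2, 6840570 to 6866635, minus strand) went with its neighbour. Its counts were 11.3, 6.36 and 6.67 in the WT libraries, 14.7, 16.6 and 15.4 in those of CRISPR Control, 48.6, 37.1 and 30.9 in those of KO 1, and 1190, 1156 and 1219 in those of KO 2, again 4 ranges that did not overlap. The log2 difference from WT was 7.07 (SE 0.23, limma adjusted p 1.71e-14) in KO 2 and 2.15 (SE 0.23, limma adjusted p 5.46e-07) in KO 1. Per kb, CMPK2 was 1.77 ± 0.0136 times the level of RSAD2 in KO 2 and 4.01 ± 0.140 times in KO 1. In WT the ratio ran from 2.20 to 7.71, at very few reads of RSAD2. Reads from the 1079 bases that the genes share can belong to either of them.

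BST2 and SAMHD1 act at opposite ends of a viral life cycle. BST2 encodes tetherin, a membrane protein that holds budding virions at the cell surface. BST2 (ENSG00000130303.14, chromosome 19, 17402939 to 17405630, minus strand) had 10.2, 17.3 and 16.2 normalised counts in the WT libraries, 33.7, 35.6 and 16.5 in those of CRISPR Control, 32.4, 43.9 and 28.3 in those of KO 1, and 1617, 1660 and 1856 in those of KO 2. CRISPR Control overlapped both WT and KO 1, and only KO 2 stood clear of the rest. BST2 was higher than WT by 6.81 (SE 0.26, limma adjusted p 1.94e-13) in KO 2 and by 1.21 (SE 0.26, limma adjusted p 0.00133) in KO 1 on the log2 scale. Against CRISPR Control, however, the difference of KO 1 was 0.33 (SE 0.26, limma adjusted p 0.287) and did not pass.

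SAMHD1 hydrolyses deoxynucleoside triphosphates and so limits reverse transcription. SAMHD1 (ENSG00000101347.11, chromosome 20, 36890229 to 36951893, minus strand) had 1885, 1927 and 2010 normalised counts in the WT libraries, 1382, 1423 and 1423 in those of CRISPR Control, 2169, 2428 and 2208 in those of KO 1, and 4758, 4644 and 4735 in those of KO 2. It shared the standing level of MX2 and, like MX2, was lowest in CRISPR Control. KO 2 exceeded WT 2.43-fold (log2 difference 1.28, SE 0.07, limma adjusted p 1.39e-11). KO 1 exceeded it by 0.22 (SE 0.07, limma adjusted p 0.0140), which did not pass without the WT library of replicate 1 (0.20, limma adjusted p 0.0517) or the KO 1 library of replicate 2 (0.17, limma adjusted p 0.0965).

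SAMD9 and SAMD9L are adjacent paralogues on chromosome 7 that restrict poxviruses and are also known as growth-limiting proteins. SAMD9 (ENSG00000205413.8, 93099513 to 93118023, minus strand) had 39.6, 38.2 and 36.2 normalised counts in the WT libraries, 119, 66.4 and 78.0 in those of CRISPR Control, 98.3, 152 and 124 in those of KO 1, and 1423, 1272 and 1039 in those of KO 2. WT was the lowest line, KO 1 and CRISPR Control overlapped, and KO 2 was the highest. The difference from WT was 4.99 (SE 0.20, limma adjusted p 2.66e-13) in KO 2 and 1.67 (SE 0.20, limma adjusted p 2.17e-06) in KO 1. KO 1 exceeded CRISPR Control by 0.52 (SE 0.20, limma adjusted p 0.0276). This call was lost when CRISPR Control replicate 2 (0.34, limma adjusted p 0.149) or replicate 3 (0.46, limma adjusted p 0.0798), or KO 1 replicate 2 (0.37, limma adjusted p 0.145) or replicate 3 (0.52, limma adjusted p 0.0607) was left out.

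SAMD9L (ENSG00000177409.12, 93130056 to 93148385, minus strand) had 3.40, 10.0 and 5.72 normalised counts in the WT libraries, 5.18, 2.37 and 8.79 in those of CRISPR Control, 8.64, 6.75 and 9.72 in those of KO 1, and 278, 362 and 263 in those of KO 2. The 3 other lines overlapped and only KO 2 was apart. It differed from WT by 5.44 (SE 0.40, limma adjusted p 1.44e-09) in KO 2, with a ratio of reads of 45.8 (95% interval 29.5 to 75.4, counting error only). In KO 1 the difference of 0.43 (SE 0.40, limma adjusted p 0.427) did not pass, and the ratio of 1.29 had an interval of 0.686 to 2.44. SAMD9L was the only effector not called in KO 1 against WT.

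IFI6 and IFI27 encode small hydrophobic proteins of the same family, IFI6 in the endoplasmic reticulum, where it blocks flavivirus replication, and IFI27 at mitochondria. IFI6 (ENSG00000126709.16, chromosome 1, 27666064 to 27672212, minus strand) had 139, 141 and 112 normalised counts in the WT libraries, 181, 196 and 202 in those of CRISPR Control, 2579, 2561 and 1689 in those of KO 1, and 17668, 20185 and 24195 in those of KO 2. The lines stood in 4 separate ranges, as for MX1. The log2 difference from WT was 7.29 (SE 0.14, limma adjusted p 1.79e-17) in KO 2 and 4.09 (SE 0.14, limma adjusted p 7.94e-14) in KO 1, 158-fold and 17.4-fold by the means. Per kb, IFI6 was higher than 99.7% of the genes tested in KO 2 and higher than 48.6% in WT. An annotated noncoding gene on the same strand shares 216 bases with IFI6, and another on the opposite strand overlaps it.

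IFI27 (ENSG00000165949.13, chromosome 14, 94104836 to 94116695, plus strand) had 3.40, 3.64 and 1.91 normalised counts in the WT libraries, 6.91, 5.93 and 4.40 in those of CRISPR Control, 14.0, 14.6 and 7.95 in those of KO 1, and 588, 637 and 658 in those of KO 2. The highest value outside KO 2 was 14.6 and the lowest within it was 588. Its ratio of reads to WT was 211 (95% interval 111 to 462) in KO 2 and 4.00 (1.89 to 9.47) in KO 1, counting error only. The fitted differences were 7.33 (SE 0.31, limma adjusted p 6.62e-13) and 1.72 (SE 0.31, limma adjusted p 2.47e-04). IFI6 was 170 ± 17.5 times the level of IFI27 per kb in KO 1, above the 41.3 ± 9.91 times of WT and the 29.3 ± 3.13 times of KO 2 (SD, n = 3 each). The ratio rests on 9 reads of IFI27 in all in WT and on 35 in KO 1. The transcript lengths used change its size but not the order of the lines.

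**Figure D2:**
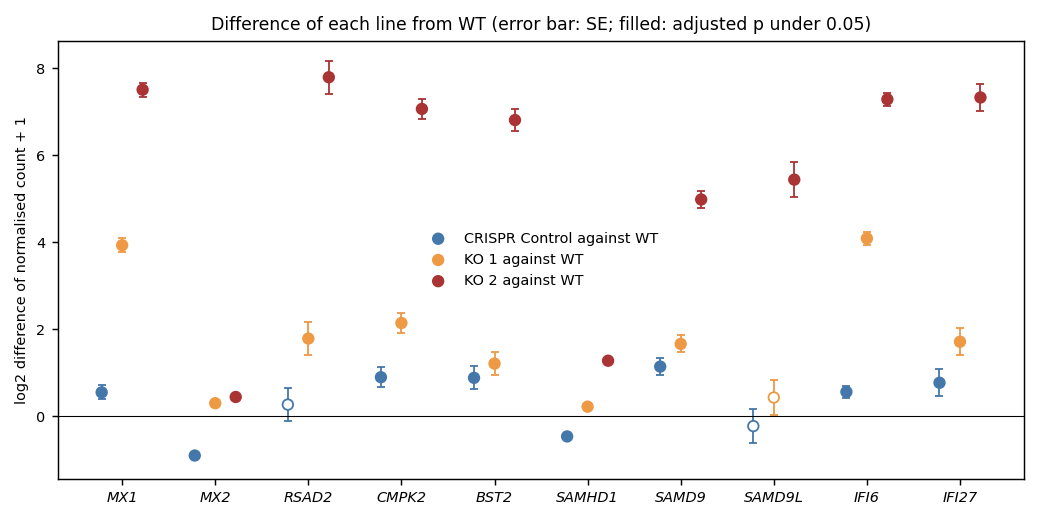
Log2 difference of each line from WT, on the log2(normalised count + 1) scale, for the 10 genes. Points are limma estimates, error bars their SE, and filled points passed an adjusted p of 0.05. KO 2 runs from 0.45 (MX2) to 7.80 (RSAD2), KO 1 from 0.22 (SAMHD1) to 4.09 (IFI6).

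CRISPR Control was not at the level of WT for most of the effectors. In that comparison 6 of the 10 were called higher (MX1, CMPK2, BST2, SAMD9, IFI6 and IFI27), where 27.2% of all genes were called higher, and 2 were lower (MX2 and SAMHD1), against 26.3% of all genes. Over the 7 genes that did not need KO 2 to pass the minimum, 5 were higher and 2 were lower. The differences were small beside those of KO 2. The highest was that of SAMD9 at 1.15 (SE 0.20, limma adjusted p 8.20e-05), and MX1 and IFI6 differed by 0.55 and 0.56. MX2 fell by 0.90 (SE 0.08, limma adjusted p 1.30e-08) and SAMHD1 fell by 0.46 (SE 0.07, limma adjusted p 1.38e-05). The call of IFI27 (0.77, limma adjusted p 0.0422) was lost with edgeR (adjusted p 0.153) and with DESeq2 (adjusted p 0.168). It was also lost without WT replicate 3 (0.56), CRISPR Control replicate 1 (0.65) or replicate 2 (0.75), and without any 1 of the KO 2 libraries (0.77, limma adjusted p 0.0701 to 0.0734). MX1 did not pass without CRISPR Control replicate 2 (0.40, limma adjusted p 0.0506) or with edgeR (adjusted p 0.0660), and BST2 did not pass without WT replicate 1 (0.66, limma adjusted p 0.0542). When only WT and CRISPR Control were fitted, 3 of the 10 were called higher, beside 3909 of the 15987 genes tested.

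Set against CRISPR Control in place of WT, 10 of 10 effectors were higher in KO 2 (33.3% of all genes), and 7 of the 7. KO 1 had 8 of 10 higher (31.7% of all genes), and 6 of the 7. The median log2 difference of the 10 genes was 6.05 in KO 2 and 1.07 in KO 1, beside -0.0084 and -0.0026 for all genes. MX1 and IFI6 kept large differences in KO 1, of 3.38 (SE 0.16, limma adjusted p 1.24e-12) and 3.53 (SE 0.14, limma adjusted p 1.00e-13). The difference of IFI27 in KO 1 (0.94, limma adjusted p 0.0126) did not pass without KO 1 replicate 2 (0.80, limma adjusted p 0.0550), and that of SAMD9L (0.66, limma adjusted p 0.158) did pass without CRISPR Control replicate 3 (1.02, limma adjusted p 0.0359). For the mean of the deficient lines against the mean of the competent lines, 10 of 10 were higher, against 32.9% of all genes, with a median of 3.85. Of the 7 genes that did not need KO 2 to pass the minimum, 7 were higher, with a median of 3.57. KO 2 can carry a call of this mean, since SAMD9L was called here but not in KO 1 against WT.

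The knockout lines differed from each other in 9 of the 10 effectors, all higher in KO 2, and in 6 of the 7, where 18.1% of all genes were called higher. This comparison shares no WT library. With equal library totals the split of all calls moved from 2890 higher and 3210 lower to 3890 higher and 2046 lower. The level of KO 1 as a percent of KO 2, with no WT level taken off, fell into 3 ranges. MX2 in KO 1 was at 90.5% ± 3.85 of its KO 2 mean and SAMHD1 at 48.1% ± 2.96 (SD over 3 KO 1 libraries). The WT means of MX2 and SAMHD1 were already 0.733 and 0.412 times those of KO 2. IFI6, SAMD9 and MX1 stood at 11.01% ± 2.46, 10.0% ± 2.15 and 8.64% ± 2.74, and these neighbours did not differ beyond their spread. CMPK2, SAMD9L, BST2, IFI27 and RSAD2 were between 3.27% ± 0.755 and 1.44% ± 0.286. Among these, SAMD9L in KO 1 was not called against WT, and BST2 in KO 1 was not called against CRISPR Control. In bulk RNA, fewer cells with a high level and less RNA in each cell cannot be told apart.

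**Figure D3:**
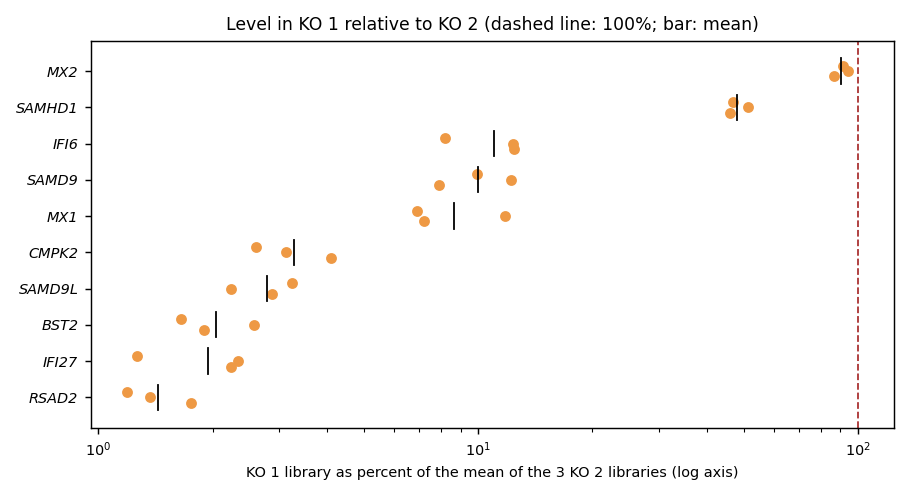
Each KO 1 library as a percent of the mean of the 3 KO 2 libraries, on a log axis, for the 10 genes in order. Points are libraries, bars the mean of 3, and the dashed line marks 100%. The WT level is not taken off. MX2 (90.5%) and SAMHD1 (48.1%) lie to the right, and the other 8 genes have means of 11.01% or less.

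The order of levels, per kb of transcript, changed between lines. In WT the sequence from the top was MX2 (651 normalised counts per kb), SAMHD1 (417), IFI6 (161), MX1 (19.7), BST2 (14.5), SAMD9 (5.58), IFI27 (4.11), CMPK2 (2.62), SAMD9L (0.891) and RSAD2 (0.829). In KO 2 it was IFI6 (25471), MX1 (3649), BST2 (1709), SAMHD1 (1014), MX2 (888), IFI27 (866), CMPK2 (384), RSAD2 (217), SAMD9 (183) and SAMD9L (42.1). MX2 and IFI27 in KO 2, and IFI27 and CMPK2 as well as SAMD9L and RSAD2 in WT, did not differ beyond the spread of their libraries. By the same measure, BST2 moved from above 15.5% of the genes tested in WT to above 91.3% in KO 2. Over all annotated exons merged, the order differed in several places. In WT SAMHD1 (179) then lay above MX2 (152), and MX1 (3.03) lay below BST2 (13.2) and SAMD9 (5.54). In KO 2 IFI6 (22097) stayed the highest, but BST2 (1554) lay above MX1 (563) and CMPK2 (271) above MX2 (208). The 10 genes together took 0.0140% ± 0.000424 of the reads of WT, 0.00947% ± 0.000511 of those of CRISPR Control, 0.0265% ± 0.00266 of those of KO 1 and 0.150% ± 0.00967 of those of KO 2 (SD, n = 3 each).

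The interferon genes themselves were at few reads. The type I gene IFNB1 had no read in the 3 libraries of WT or of CRISPR Control, 1 read in KO 1 and 41 reads over the KO 2 libraries. Taking 3 reads per WT library as the limit of a count of 0, IFNB1 was at least 4.01-fold higher in KO 2. Among the type III genes, IFNL1 had 2 reads in WT and 8 in CRISPR Control, then 27 in KO 1 and 460 in KO 2, a ratio of KO 2 to WT of 209 (95% interval 57.5 to 1731). IFNL3 rose from 0 reads in WT to 320 in KO 2, at least 31.7-fold, and IFNL2 from 3 to 295, with a ratio of 89.3 (95% interval 30.3 to 436). These intervals and limits cover counting error only. CRISPR Control and KO 1 had 7 and 11 reads of IFNL3, and 9 and 5 reads of IFNL2. Neither gene was called in KO 1 against CRISPR Control (limma adjusted p 0.278 for IFNL3 and 0.997 for IFNL2). IFNL2 and IFNL3 are near-identical copies, so the split of reads between them is uncertain. IFNL4 had 30 reads in KO 2 and 4 in KO 1, and IFNE had 12, 19, 5 and 32 reads in the 4 lines. Of the rest, IFNA1 and IFNA4 had 1 read each in a knockout line, IFNA14 1 read in CRISPR Control and IFNW1 3 reads in WT, and no other interferon gene had a read. Of the 22 interferon genes only IFNL1, IFNL2 and IFNL3 passed the minimum, through KO 2 alone, and each was higher in KO 2 than in WT (limma adjusted p 3.17e-08 to 2.05e-06).

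The median log2 difference of 6 receptor chains in KO 2 against WT was 0.37. None was called lower, where 27.9% of all genes were. Called higher were 2 of the chains, against 27.1% of all genes. These were IFNLR1, the specific chain for type III interferon (0.70, limma adjusted p 0.00126), and IFNGR1 (0.65, limma adjusted p 4.78e-07). In KO 1 1 of 6 was higher, against 18.0% of all genes. CRISPR Control had 2 chains higher and 3 lower than WT, against 27.2% and 26.3% of all genes. Set against CRISPR Control, 4 were higher in KO 1 (31.7% of all genes) and 3 in KO 2 (33.3%). The largest of these differences was in IFNGR2, named after its values were seen, which averaged 1112 ± 84.7 in CRISPR Control and 2700 ± 118 in WT. Of 9 kinases and transcription factors, 6 were higher and 1 lower in KO 2 than in WT, against 27.1% and 27.9% of all genes. Their median was 1.29. In KO 1, 4 were higher and none lower, against 18.0% and 17.5% of all genes. IRF7, which amplifies interferon production, averaged 416 ± 33.4 in WT, against 1040.3 ± 39.7 in KO 1 and 2049.7 ± 216 in KO 2. IRF9, the DNA-binding part of the complex at the ISRE, averaged 25.8 ± 5.96, 59.3 ± 2.37 and 125 ± 27.1 in these lines (SD, n = 3 each). JAK2 was higher by 0.46 (limma adjusted p 0.0274) and JAK1 fell by 0.29 (limma adjusted p 0.00134) in KO 2. Among 6 feedback regulators, USP18, which blocks the type I receptor, was higher by 3.84 in KO 2 (limma adjusted p 1.57e-15) and by 1.67 in KO 1, and SOCS3 by 0.80 in KO 2 (limma adjusted p 9.04e-08). The other 2 called fell in KO 2, PIAS1 by 0.38 and PTPN11 by 0.27, where 27.1% of all genes were called higher and 27.9% lower.

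Sensors of viral nucleic acid were mostly higher. Of the 8 that passed the minimum, 7 were higher and 1 lower in KO 2 than in WT, against 27.1% and 27.9% of all genes. In KO 1, 6 were higher than in WT, against 18.0% of all genes. Without IFI16 and TLR3, which passed through KO 2 alone, 5 of 6 were higher and 1 was lower in KO 2. IFI16, a DNA sensor, rose from 0.983 ± 0.918 normalised counts in WT to 587 ± 20.6 in KO 2, and TLR3, an endosomal RNA sensor, from 1.30 ± 0.457 to 58.3 ± 7.21 (SD, n = 3 each). IFI16 averaged 13.2 ± 4.10 in CRISPR Control, above both WT (limma adjusted p 3.82e-05) and KO 1, where it was 4.60 ± 3.01 (limma adjusted p 0.00914). TLR3 averaged 6.50 ± 3.19 in CRISPR Control and 6.52 ± 3.45 in KO 1. Set against CRISPR Control, 4 of the 8 sensors were higher and 1 lower in KO 1, against 31.7% and 31.3% of all genes. In KO 2, 7 were higher than in CRISPR Control, against 33.3% of all genes. From WT to KO 2, MAVS differed by 0.17 (limma adjusted p 0.0387), and CGAS fell by 0.49 (limma adjusted p 4.64e-04).

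Other interferon-stimulated effectors were mostly higher in both knockout lines. Of 34 tested, 32 were higher and 1 lower in KO 2, against 27.1% and 27.9% of all genes, and the median was 3.37. In KO 1, 27 were higher and 3 lower, against 18.0% and 17.5% of all genes, and the median was 1.18. Over the 30 that did not need KO 2 to pass the minimum, 28 were higher and 1 lower in KO 2. The highest was OAS2, an enzyme that activates RNase L, at 8.32 (SE 0.19, limma adjusted p 1.75e-16), followed by XAF1 at 7.62. IFITM2, which blocks virus entry, fell by 2.24 (SE 0.14, limma adjusted p 1.12e-10) in KO 2 and by 2.34 in KO 1, and IFIT5 was the lowest of those that rose, at 1.33. Of 12 further restriction factors 8 were higher and 2 lower in KO 2, against 27.1% and 27.9% of all genes. SLFN5 (3.12) and APOBEC3G (2.86) were the highest, and SLFN11, which cleaves tRNA, fell by 1.27 and TRIM28, a silencer of retroelements, by 0.69.

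Relatives of the effectors by sequence were called higher in KO 2 at close to the share of all genes. None of 7 paralogues was lower, against 27.9% of all genes, and the median was 0.11. Higher were 2 of the 7, against 27.1% of all genes. They were IFI27L2, next to IFI27, at 1.04 (SE 0.16, limma adjusted p 2.22e-05) and the dynamin DNM1 at 0.79 (SE 0.10, limma adjusted p 2.97e-06). A list of 16 genes held enzymes that make or clear nucleotides, as CMPK2 and SAMHD1 do, and nucleotide carriers. Of these 16, 2 were higher and 9 lower in KO 2. The shares of all genes were 27.1% and 27.9%, and the median of the 16 was -0.32. TYMS and DUT, which make and guard thymidylate, fell by 1.40 and by 1.15 in KO 2, while TK2 and the carrier SLC25A36 were higher by 0.28 and 0.24. In KO 1 2 of 16 were higher and 6 lower, against 18.0% and 17.5% of all genes.

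Genes beside the effectors were compared to see whether a difference reached along the chromosome. BISPR, a noncoding RNA that starts 0.056 kb from BST2 and is read the other way, rose from 1.39 ± 1.22 normalised counts in WT to 56.8 ± 11.9 in KO 2 (SD, n = 3 each), and passed the minimum through KO 2 alone. RNF144A-AS1, 13.5 kb beyond RSAD2, was higher by 0.84 in KO 2 (limma adjusted p 0.00225). The nearest tested neighbours of SAMD9 and SAMD9L, CDK6 and VPS50, differed by -0.064 (limma adjusted p 0.605) and 0.42 (limma adjusted p 6.36e-04), beside 4.99 and 5.44 for the pair they enclose. SOGA1 and RBL1 on the sides of SAMHD1 fell by 1.00 and by 0.99, and AHDC1 and FAM76A around IFI6 had differences of -0.27 (limma adjusted p 0.0749) and 0.050 (limma adjusted p 0.732). On chromosome 21 BACE2 was higher by 0.59 and RIPK4 fell by 0.38, and GTPBP3 beside BST2 fell by 0.35. RPS7, the nearest tested gene on the other side of RSAD2 and CMPK2 but 3285 and 3260 kb away, fell by 0.42 (limma adjusted p 1.49e-04). IFI27L1, 0.99 kb from IFI27, differed by 0.30 (limma adjusted p 0.0787).

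Over the 12 libraries, the 5 tested genes with a mean of at least 100 whose log2 levels were most like the mean of the standardised effectors were OAS2, SP140L, B2M, TCEAL8 and MAP7, with Pearson's r from 0.992 to 0.997. The libraries fall into 4 lines, so this likeness is a description of 4 levels more than of 12 points. B2M, the light chain of MHC class I, averaged 10088 normalised counts in WT and 10605 in CRISPR Control, below the 14086 of KO 1 and the 29851 of KO 2. MX2 was least like the other effectors, with an r of 0.641 with the mean of the other 9, where the other genes had at least 0.946.

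Leukocyte markers stood at low counts and, as most effectors, were highest in KO 2 and next in KO 1. The 10 of them summed to between 72.4 and 82.9 normalised counts in the WT libraries, between 70.3 and 83.0 in those of CRISPR Control, between 126 and 144 in those of KO 1, and between 261 and 317 in those of KO 2. All 3 that passed the minimum were higher in KO 2 than in WT, against 27.1% of all genes, with a median log2 difference of 2.13. The sum was carried by CD14 (36.2 ± 5.86 in WT, 161 ± 10.8 in KO 2) and ITGAM (18.8 ± 5.12 and 91.7 ± 18.6), while CLEC4C and FCGR3A were at 0 in all KO 2 libraries. The 7 markers of fibroblasts and endothelium did not follow that order. They summed to between 24.8 and 29.1 in the WT libraries, between 66.4 and 98.5 in those of CRISPR Control, between 40.5 and 46.8 in those of KO 1, and between 52.2 and 90.3 in those of KO 2. NCAM1 was higher by 0.85 (limma adjusted p 0.0487) and PDGFRB by 1.69 (limma adjusted p 3.20e-04) in KO 2. Of the 6 carcinoma line markers 1 was higher in KO 2 (27.1% of all genes), KRT19 by 1.74. Lower were 4 (27.9% of all genes), among them CDH1, which fell by 3.81, KRT18, which fell by 0.62, and EPCAM, which fell by 0.54. The part of other cells in the levels of the effectors was not tested.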

How the data were processed

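Total RNA of the 12 libraries was sequenced in pairs on a NovaSeq X Plus. The authors trimmed reads with Cutadapt, mapped them to GRCh38 with STAR, counted them per gene with featureCounts and divided by DESeq2 size factors, so the deposited values are a signal of read counts scaled between libraries. Strand setting and annotation release are not given in the sources used here. Values were whole multiples of 1 step per library and gave whole reads (tolerance 0.01) for 100% of values. The 4 columns of line means were not used.

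Groups and replicate numbers came from the sample titles. limma (3.58.1, R 4.3.3) was fitted to log2(normalised count + 1) of 15987 of 63086 genes with a mean of at least 10, with 4 line means, all 12 libraries and a trended eBayes, where the study used DESeq2. Tests were two-sided and adjusted by Benjamini-Hochberg. It was tested on simulated data. Alternatives were DESeq2 (1.42.0) and edgeR (4.0.16) on recovered reads, other scalings, pseudocounts and minimums, a replicate block and each library left out. Ratios of reads have exact binomial 95% intervals. Replicates are labelled biological, but their source cultures are not described further, so p-values measure the spread between these libraries.

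The effectors and lists were chosen with earlier results of these data known. From every list the 2 highest and 2 lowest called differences of KO 2 against WT are named, plus every interferon gene with a read, the nearest tested gene on each side of an effector, and the 5 genes most alike. PTPRC, CD3E, CLEC4C, FCGR3A, VIM and KRT8 were named for the cell type check. Coordinates and lengths are from GENCODE v44, matched by Ensembl ID for 99.1% of genes, and promoter windows from RefSeq.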

Additional observations from a re-analysis of the deposited data

Results flagged for a closer look

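The difference from the same WT libraries was not equal in the clones KO 1 and KO 2 for 9 of the 10 effectors. It was tested as KO 2 against KO 1 in the limma fit. Of all genes tested, 18.1% were called higher in KO 2, and 7.03% by at least 1 on the log2 scale. The log2 differences, all higher in KO 2, were 3.58 for MX1, 6.01 for RSAD2, 4.92 for CMPK2, 5.60 for BST2, 1.06 for SAMHD1, 3.32 for SAMD9, 5.01 for SAMD9L, 3.20 for IFI6 and 5.61 for IFI27. The limma adjusted p-values ran from 4.19e-12 for IFI6 to 1.16e-08 for SAMD9L. All 3 KO 2 libraries were above all 3 KO 1 libraries for each of these genes, and the share of all genes so separated was not counted. KO 1 and KO 2 are separate clones, and what sets them apart was not tested.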

How the results depend on the processing

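Of 70 comparisons of an effector between lines, 58 kept their direction and their side of the threshold in every alternative run. In KO 2 against WT the count of 10 effectors called higher was 10 in each alternative fit. It was 9, against 10.0% of all genes, with a log2 difference of at least 1 asked for. The count in KO 1 against WT was 8 to 9 with a library left out, where 2334 to 3157 of the 15987 genes were called higher. Called higher in CRISPR Control against WT were 3 when only these lines were fitted (3909 of the 15987 genes). With a library left out 4 to 6 were called higher (3769 to 4363 of all genes). With a difference of at least 1 asked for, 1 was called higher and 0 lower, against 7.14% and 7.53% of all genes. In KO 1 against CRISPR Control the count was 5 with that rule and 6 to 8 with a library left out. Values with few reads turned direction when a library was left out: RSAD2 in CRISPR Control against WT ran from -0.13 to 0.77, SAMD9L from -0.59 to 0.18, and BST2 in KO 1 against CRISPR Control from -0.014 to 0.52. With a pseudocount of 10 the differences of RSAD2, IFI27 and CMPK2 in KO 1 against WT were 0.70, 0.76 and 1.43, those of RSAD2 and IFI27 in KO 1 against CRISPR Control 0.66 and 0.48, and that of CMPK2 in CRISPR Control against WT 0.51, and all 6 still passed, while IFI27 in CRISPR Control against WT was at 0.28 and did not. Same-numbered libraries deviated from their line means with correlations of -0.129 to 0.160, so the numbers did not pair them. With a replicate block 10 effectors were called higher in KO 2 against WT and 9 in KO 1 against WT, and no call of an effector changed. A level below 3 reads in a library cannot be told from 0, which limits RSAD2 and IFI27 in WT.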
